A study of Mus musculus with 16 samples.

Results

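The comparison described here sets the livers of mice on a high-fat diet against those of mice on a normal diet, in the arm of the study without krill extract. It holds 8 of the study's 16 liver libraries. The HF group is mice 23, 25, 28 and 29, fed 45% fat (diet D12451), and the N group is mice 4, 5, 7 and 8, fed 10% fat (diet D12450B). The members were taken by the feeding label of each sample and by nothing measured. All mice were C57BL/6J males, labelled with an age of 4 weeks and a feeding time of 18 weeks, and each library came from 1 mouse. The other 8 mice, used here as a second look at the same diet difference, ate the high-fat diet with 1% WEPAK (HFW) or the normal diet with 1% WEPAK (NW), WEPAK being a water-soluble extract of Pacific krill. Transcripts were counted by SuperSAGE, which reads a tag of defined length beside a cut site of the enzyme NlaIII in each captured transcript. Tags were summed per gene symbol and are given as tags or as CPM, tags scaled to a common normalized library size.

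The liver takes up fatty acids from the blood and from dietary remnants, makes new ones from carbohydrate, stores them as triglyceride in lipid droplets, burns them in mitochondria and peroxisomes, and exports them in lipoproteins. A stearoyl-CoA desaturase introduces the double bond that turns saturated into monounsaturated fatty acids, common acyl groups of stored triglyceride. Hepatocytes near the portal vein carry out most gluconeogenesis and urea synthesis, and those near the central vein much of the glutamine synthesis and drug oxidation. Prolonged high-fat feeding of C57BL/6J mice is widely used to produce obesity and fatty liver.

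The HF libraries held more tags on average than the N libraries, a difference that did not reach an unadjusted p of 0.05, with 91468, 149349, 119255 and 115455 tags in named genes in HF mice 23, 25, 28 and 29, against 65397, 100426, 73305 and 64724 tags in N mice 4, 5, 7 and 8. The means were 118882 ± 23746 tags in HF and 75963 ± 16768 tags in N (SD, n = 4 each), a ratio of 1.57 (two-sided exact permutation test, p = 0.0571, the smallest possible being 0.0286). One tag was worth 6.70 to 10.9 CPM of the library's own total in HF and 9.96 to 15.5 CPM in N, so a gene with few tags was read less finely in N. All 11 hepatocyte markers had tags, and their summed level was 59884 to 72262 CPM in HF and 65467 to 91891 CPM in N. None of 9 neutrophil markers had a tag in these libraries.

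N mice 4 and 8 stood apart from their group. A principal component analysis of the 500 genes of largest variance put 41.2% of it on the first axis, where HF mice 23, 25, 28 and 29 scored -5.85, -7.95, -7.02 and -0.297, and N mice 4, 5, 7 and 8 scored -9.22, 4.76, 7.22 and 18.3. N mouse 4 thus lay beyond every HF mouse on the HF side, and N mouse 8 lay farthest on the other. The correlation of log2(CPM + 10) across all 1046 genes tested between N mouse 4 and the HF mean was 0.946, above its 0.878 with the mean of the other 3 N mice. HF mouse 29 was also slightly closer to the N mean (0.955) than to the mean of the other 3 HF mice (0.952), and the other 6 libraries were closer to their own group. The feeding label of N mouse 4 was kept. Within HF, mouse 28 was set apart from mouse 23 on the second component, which held 18.8% of the variance, with -12.2 for HF mouse 28 and 9.56 for HF mouse 23. Values without N mouse 4 or 8 are given beside some of the genes and lists that moved without them. These mice were singled out by these same data, and N mouse 4 lay on the HF side. A smaller p without N mouse 4, here and below, is therefore a description and no independent support for a difference.

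The predicted tags of the genes on which the comparison turns are shown here because SuperSAGE counts such tags, and because a tag can tell apart close relatives. Whether the deposited counts are counts of these exact sequences was not tested. Each is the last NlaIII site, in capitals, and the bases after it, 26 bases in all, 5′ to 3′ on the transcript strand, read from GENCODE M21 transcripts matched by RefSeq identifier. The release behind the deposited table may differ.
Pcsk6: CATGgtcctgctctcctctctgactg
Scd1: CATGaaaaccattgcaggaaaccttt
Ephx1: CATGgctttaatgataaatgggttta
St3gal5: CATGggaagaggaaaaagaaaagaaa
Acaa1a: CATGggacaccctggttgcaaagcca
Acaa1b: CATGaatggtggatgtgatgggcaca
Eef1b2: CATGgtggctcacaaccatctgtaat
All 7 lie in 3′ UTRs. On GRCm38 the Pcsk6 tag is at chr7:66050181-66050206 on the plus strand and the Scd1 tag at chr19:44394617-44394642 on the minus strand. The Ephx1 tag is at chr1:180989563-180989588 (minus) and the St3gal5 tag at chr6:72154500-72154525 (plus). The paired thiolase genes Acaa1a and Acaa1b, which are close relatives on chromosome 9, have different last tags, at chr9:119350226-119350251 (plus) and chr9:119148062-119148087 (minus), and neither tag is found in another gene's transcripts. The predicted Eef1b2 tag, at chr1:63180375-63180400 (plus), is held by 189 more genes in their transcripts, so counts of this tag cannot be assigned to Eef1b2 alone.

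Pcsk6 was the 1 gene of 1046 tested (0.0956%) that differed between HF and N past an adjusted p of 0.05. It rose in HF. Pcsk6 encodes a proprotein convertase that cleaves precursors of secreted proteins, growth factors of the TGF-beta family among them. The counts were 68, 98, 26 and 27 tags in HF mice 23, 25, 28 and 29, against 15, 7, 3 and 3 tags in N mice 4, 5, 7 and 8. In CPM these were 716, 613, 213 and 229 in HF and 223, 66.7, 39.7 and 49.8 in N. HF mice 23 and 25 were the high ones of their group, and N mouse 4 reached the level of HF mice 28 and 29, so the groups overlapped by 1 mouse. The means were 443 ± 259.6 CPM in HF and 94.9 ± 86.2 CPM in N (SD, n = 4 each). The log2 fold change was 2.24 (SE 0.45), with an adjusted p of 0.0282 in edgeR's quasi-likelihood test after Benjamini-Hochberg adjustment, and with all 4 HF mice above the N mean. Leaving out N mouse 4 gave 3.02 on the log2 scale (adjusted p = 0.000307), and Pcsk6 also passed without N mice 4 and 8 together (adjusted p = 0.00411). Without N mouse 8 alone it had 2.12 and did not pass (adjusted p = 0.0837). Leaving out HF mouse 23, HF mouse 25, N mouse 5, N mouse 7 or NW mouse 11 also took its adjusted p above the threshold, with log2 fold changes of 1.96, 2.04, 2.10, 2.04 and 2.25 and adjusted p from 0.0526 to 0.396. A fit of the 8 libraries alone gave 2.23 (adjusted p = 0.215) and limma-voom 2.28 (adjusted p = 0.109). In bulk liver RNA, a different number of cells of a type and a different amount of RNA per cell cannot be told apart, for this gene and those below.

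**Figure D1:**
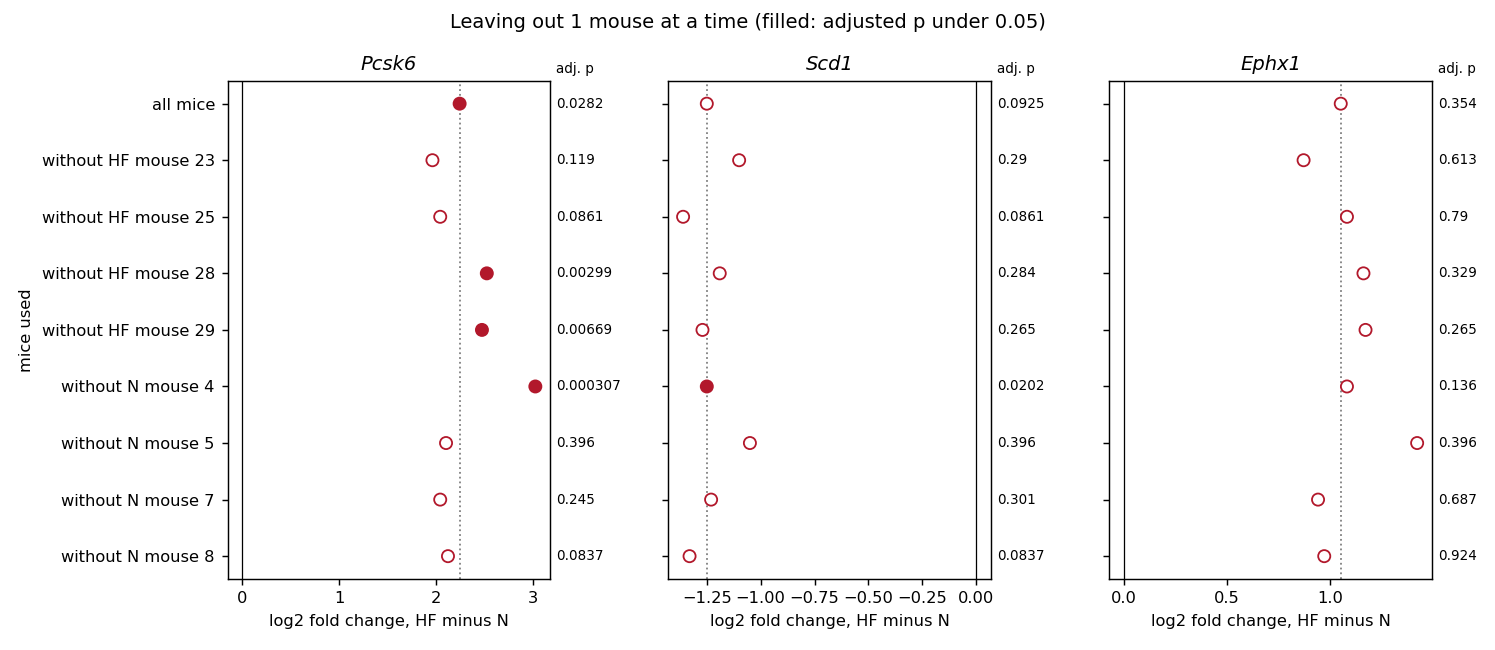
Log2 fold change of HF minus N (x axis) for Pcsk6, Scd1 and Ephx1 with all mice and with each HF or N mouse left out in turn; filled points have an adjusted p under 0.05, which is printed at the right of each panel, and the dotted line is the value with all mice. Each gene kept its sign in all 8 refits, while Pcsk6 passed without HF mouse 28, HF mouse 29 or N mouse 4, Scd1 passed without N mouse 4, and Ephx1 passed in none.

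Over all genes tested, 103 (9.85%) had an unadjusted p under 0.05, 39 of them higher in HF (3.73%) and 64 lower (6.12%). The 4 HF and 4 N libraries did not overlap for 32 genes (3.06%), 14 higher (1.34%) and 18 lower (1.72%). A negative log2 fold change was had by 539 genes (51.5%), and the median over all genes was -0.02. The DESeq2 Wald test called 2 genes, Pcsk6 and Scd1, and limma-voom called 0.

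Among the 12 higher genes of smallest p, those after Pcsk6 did not pass. Ephx1, the microsomal epoxide hydrolase that converts reactive epoxides to diols, had 379, 257, 221 and 203 CPM in the HF mice, against 134, 191, 79.4 and 83.1 CPM in the N mice. The lowest HF mouse, 29, was just above the highest N mouse, 5. Its log2 fold change was 1.05 (SE 0.36, adjusted p = 0.354, edgeR). Mtmr4, a phosphatase of endosomal phosphoinositides, had 568, 645, 467 and 526 CPM in HF, against 431, 200.2, 251 and 116 CPM in N. The groups did not overlap, and the highest N value was that of mouse 4. The log2 fold change of Mtmr4 was 1.14 (SE 0.34, adjusted p = 0.354), and 1.52 without N mouse 4 (adjusted p = 0.0202, edgeR).

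St3gal5 encodes the sialyltransferase that makes ganglioside GM3, the first ganglioside of its series. It was counted with few tags, 12, 26, 12 and 12 in the HF mice, against 4, 5, 3 and 4 in the N mice. In CPM these were 126, 163, 98.3 and 102 in HF and 59.5, 47.7, 39.7 and 66.4 in N, with no overlap. The log2 fold change was 1.22 (SE 0.44, adjusted p = 0.378). The remaining genes of the 12 overlapped between the groups. Log2 fold changes among them were 0.98 for Fam178a, 0.94 for 1110020G09Rik, 0.91 for Slc22a18, a transporter of organic cations, and 0.87 for Aldh5a1, the succinic semialdehyde dehydrogenase of GABA breakdown. They were 0.77 for Glrx5, which hands on iron-sulfur clusters in mitochondria, 0.76 for Sec24c, a cargo adaptor of COPII vesicles, and 0.73 for Chmp4b, an ESCRT-III subunit. In 9 of the 12 genes N mouse 4 had the highest level of the 4 N mice, and in the other 3, Ephx1, St3gal5 and Aldh5a1, the second highest.

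Scd1, the main stearoyl-CoA desaturase of liver, was the gene of smallest p among those lower in HF. It had 2569, 4424, 3488 and 3798 CPM in HF mice 23, 25, 28 and 29, against 8464, 11404, 8007 and 6113 CPM in N mice 4, 5, 7 and 8. Every HF mouse was below every N mouse, and N mouse 4 lay within the range of the other 3 N mice. The means were 3569.8 ± 773 CPM in HF and 8497 ± 2189 CPM in N (SD, n = 4 each), and the log2 fold change of -1.25 (SE 0.30) missed the threshold by edgeR (adjusted p = 0.0925). It passed by the Wald test of DESeq2 (-1.22, adjusted p = 0.0365), without N mouse 4 (-1.25, adjusted p = 0.0202, edgeR) and without HFW mouse 34 (-1.21, adjusted p = 0.0476, edgeR). Fbxo3, a substrate adaptor of a ubiquitin ligase, had 84.2, 50.1, 90.1 and 76.3 CPM in HF, against 164, 219, 225 and 133 CPM in N, again with no overlap in CPM. It had few tags, 8, 8, 11 and 9 in HF and 11, 23, 17 and 8 in N, and the tags overlapped. Its log2 fold change was -1.34 (SE 0.35, adjusted p = 0.222). Tom1l2, an adaptor of endosomal sorting, had 73.7, 43.8, 57.3 and 59.3 CPM in HF, against 104, 209.8, 92.6 and 149.5 CPM in N, with no overlap in CPM and a log2 fold change of -1.29. These came from 7 tags in each HF mouse and 7, 22, 7 and 9 tags in N mice 4, 5, 7 and 8. N mice 4 and 7 thus had as many tags as the HF mice, and differed from them in CPM only through their smaller libraries. Wdtc1, known from flies and mice as a brake on fat storage, had -1.43 with overlapping groups, from 9, 2, 3 and 9 tags in HF and 6, 13, 16 and 6 tags in N. Eef1b2, a translation elongation factor whose tag is shared as given above, had 105, 113, 139 and 144 CPM in HF, against 104, 248, 344 and 365 CPM in N. N mouse 4 was below all HF mice, the other 3 N mice were above them, and the log2 fold change was -1.07 (SE 0.33).

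**Figure D2:**
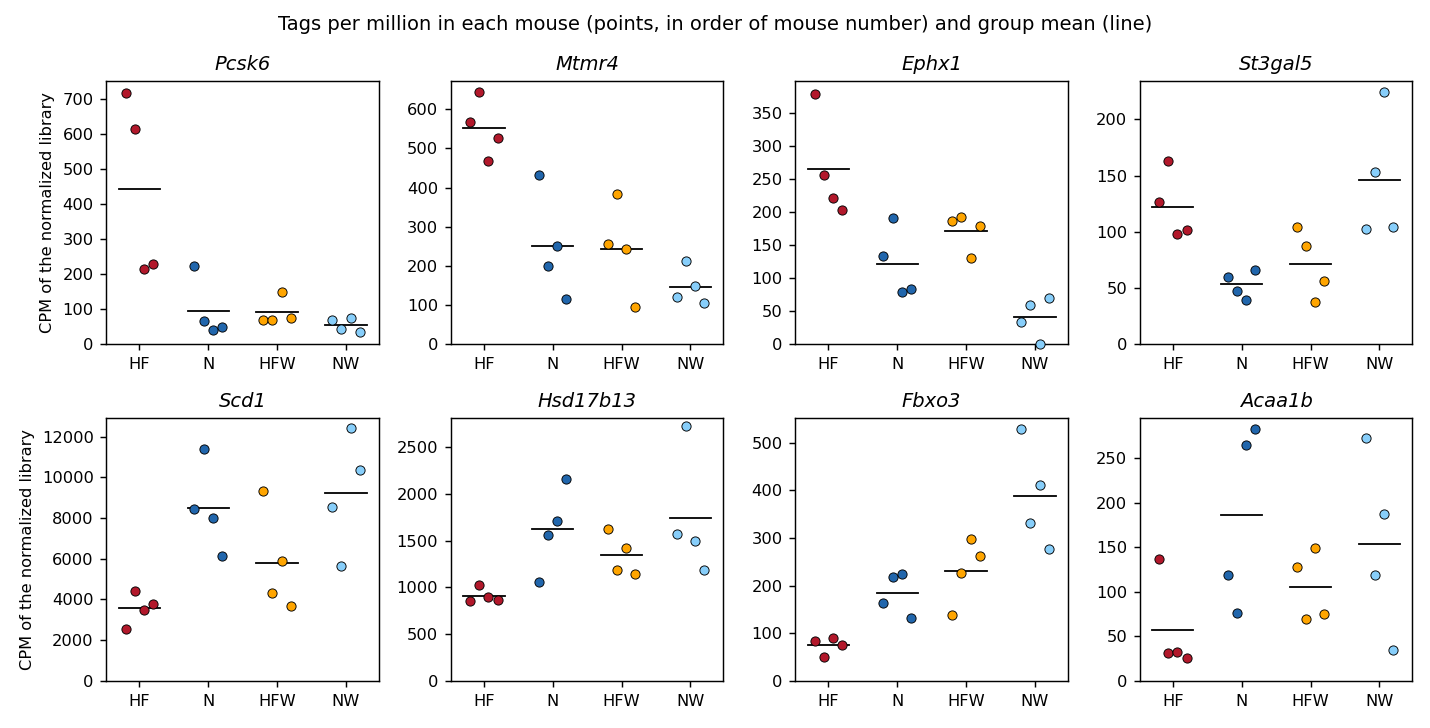
CPM of the normalized library (y axis, from 0) for 8 genes in each mouse of the HF, N, HFW and NW groups; points are mice in order of their numbers and lines are group means. Scd1, Fbxo3, Hsd17b13, Mtmr4, Ephx1 and St3gal5 do not overlap between HF and N, while for Pcsk6 N mouse 4 and for Acaa1b HF mouse 23 lie among the other group.

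**Figure D3:**
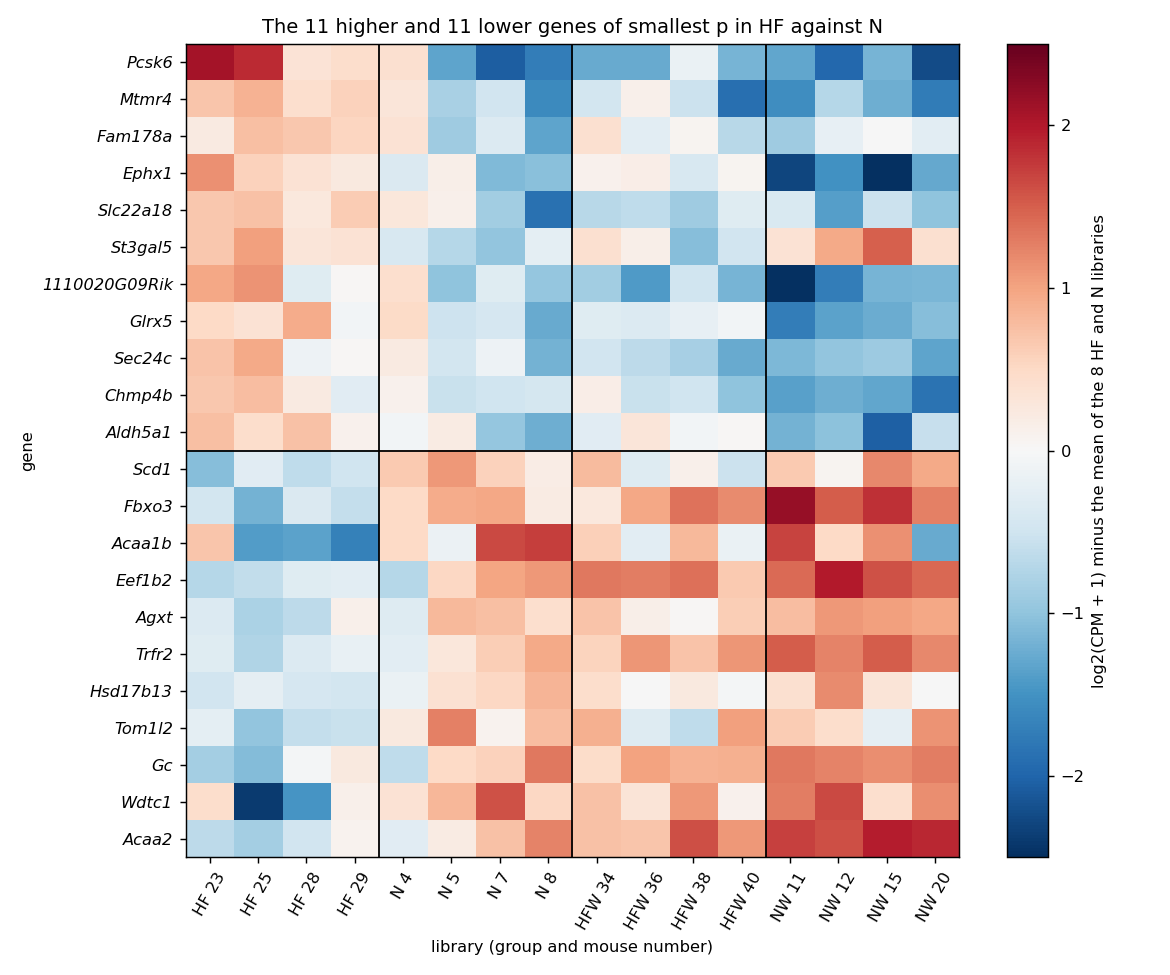
Log2(CPM + 1) minus the mean of the 8 HF and N libraries, for the 11 higher (top) and 11 lower (bottom) genes of smallest p in HF against N; columns are libraries, in the groups HF, N, HFW and NW. The column of N mouse 4 is on the HF side of the mean for most of the higher genes, Pcsk6 with 223 CPM among them, and on the N side for Scd1 with 8464 CPM.

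Genes of fatty acid synthesis and of triglyceride storage gave no called difference. Of 4 genes of the desaturase list, 1, Scd1, was lower at an unadjusted p under 0.05 (background 6.12%). All 4 had negative values, with a median of -0.19. They include Cyb5b, a cytochrome b5 rather than a desaturase, at -0.29 (SE 0.37). Fads1, the delta-5 desaturase, was at -0.02 (SE 0.32) and took either sign under other settings. In HFW minus NW 3 of the 4 were positive, with a median of 0.31. Of 5 genes of fatty acid synthesis, 4 were negative, with a median of -0.14 (-0.27 without N mouse 8 and -0.40 without N mice 4 and 8) and 0 at an unadjusted p under 0.05. Fasn, fatty acid synthase, had 1105, 814, 2465 and 1161 CPM in HF, against 1235, 2336, 622 and 548 CPM in N. HF mouse 28 and N mouse 5 were the high mice, and the log2 fold change was 0.21 (SE 0.42). Without HF mouse 28 it was -0.19, and without N mice 4 and 8 it was -0.08. Srebf1, the transcription factor that drives this pathway, had -0.14 (SE 0.47), Acly, which supplies cytosolic acetyl-CoA, -0.09 (SE 0.33) and Acacb, the mitochondrial acetyl-CoA carboxylase, -0.76 (SE 0.55). The signs of Srebf1 and Acly also turned under other settings.

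Of 8 genes of triglyceride synthesis and lipid droplets, 7 were negative, with a median of -0.22, and 1, Hsd17b13, was lower at an unadjusted p under 0.05 (background 6.12%). The median was -0.09 without N mouse 8, with 5 of 8 negative. Hsd17b13 encodes a lipid droplet protein of hepatocytes. It had 853, 1026, 893 and 865 CPM in HF, against 1056, 1554, 1707 and 2159 CPM in N. The groups did not overlap, with N mouse 4 closest to HF mouse 25, and the log2 fold change was -0.83 (SE 0.27, adjusted p = 0.354). Without N mouse 4 it was -0.98 (adjusted p = 0.0342, edgeR). Dgat2, which adds the last acyl group of triglyceride, had 8433, 9099, 8607 and 14953 CPM in HF, against 7438, 12549, 15696 and 24800.0 CPM in N, and a log2 fold change of -0.56 (SE 0.30), or -0.17 without N mouse 8. HF mouse 29 was far above the other HF mice for this gene. Mgll, monoacylglycerol lipase, had -0.72 (SE 0.37). Plin2, the main lipid droplet coat protein of liver, averaged 154 ± 14.1 CPM in HF and 154 ± 17.6 CPM in N (SD, n = 4 each). Its log2 fold change of -0.01 (SE 0.35) took either sign under other settings. Fitm1, an endoplasmic reticulum protein of lipid droplet formation, had 0.43, and 1.08 without N mouse 4 (adjusted p = 0.0209, edgeR), where it passed.

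Among 12 genes of peroxisomal fatty acid oxidation, 9 were negative, with a median of -0.39, and 4 were lower at an unadjusted p under 0.05 (background 6.12% of genes tested) while none of the 12 passed. These 4 were Acaa1b, Ehhadh, Acaa1a and Cat. Acaa1b and Acaa1a are the peroxisomal thiolases that take the last step of each cycle. Acaa1b had 137, 31.3, 32.8 and 25.4 CPM in HF, against 119, 76.3, 265 and 282 CPM in N. HF mouse 23 lay above N mice 4 and 5, and the other HF mice lay below all N mice. The log2 fold change was -1.75 (SE 0.53, adjusted p = 0.354), from 3 to 13 tags in an HF mouse and 8 to 20 in an N mouse. Acaa1a, counted with far more tags, had 1348, 1865, 2055 and 2687 CPM in HF, against 1577, 3366, 4169 and 5083 CPM in N. N mouse 4 was inside the HF range, the other 3 N mice were above every HF mouse, and the log2 fold change was -0.83 (SE 0.31).

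Ehhadh, the bifunctional enzyme of the middle steps, had 73.7, 169, 8.19 and 67.8 CPM in HF, against 223, 134, 238 and 299 CPM in N, and a log2 fold change of -1.38 (SE 0.47). HF mouse 28 had 1 tag, and HF mouse 25 lay above N mouse 5. Cat, the catalase that removes the peroxide made in peroxisomal oxidation, had -0.81 (SE 0.37). Without N mouse 8 the median of the list was -0.14 with 8 of 12 negative, and without N mouse 4 it was -0.41 with 9 of 12 negative.

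Of 12 genes of mitochondrial oxidation and ketone synthesis, 7 were negative, with a median of -0.08, and 2 were lower at an unadjusted p under 0.05 (background 6.12%). Acaa2, the mitochondrial thiolase, had 116, 100.1, 131 and 195 CPM in HF, against 149, 209.8, 304 and 432 CPM in N. Only HF mouse 29 overlapped N mouse 4, and the log2 fold change was -0.99 (SE 0.34, adjusted p = 0.354). Etfa, which passes electrons from the acyl-CoA dehydrogenases to the respiratory chain, had -0.60 (SE 0.28), or -0.38 without N mouse 8. Cpt1a, which controls entry of fatty acids into mitochondria, had 0.06 (SE 0.42), a value that took either sign. Cyp4a14, a fatty acid hydroxylase induced by the nuclear receptor PPARalpha, had -0.04 (SE 0.55) and took either sign under other settings, with 1706, 1884, 426 and 1000.3 CPM in HF and 1547, 725, 1363 and 1561 CPM in N. Creb3l3, a hepatic transcription factor of fasting metabolism, had -0.69 (SE 0.29, unadjusted p = 0.0228).

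**Figure D4:**
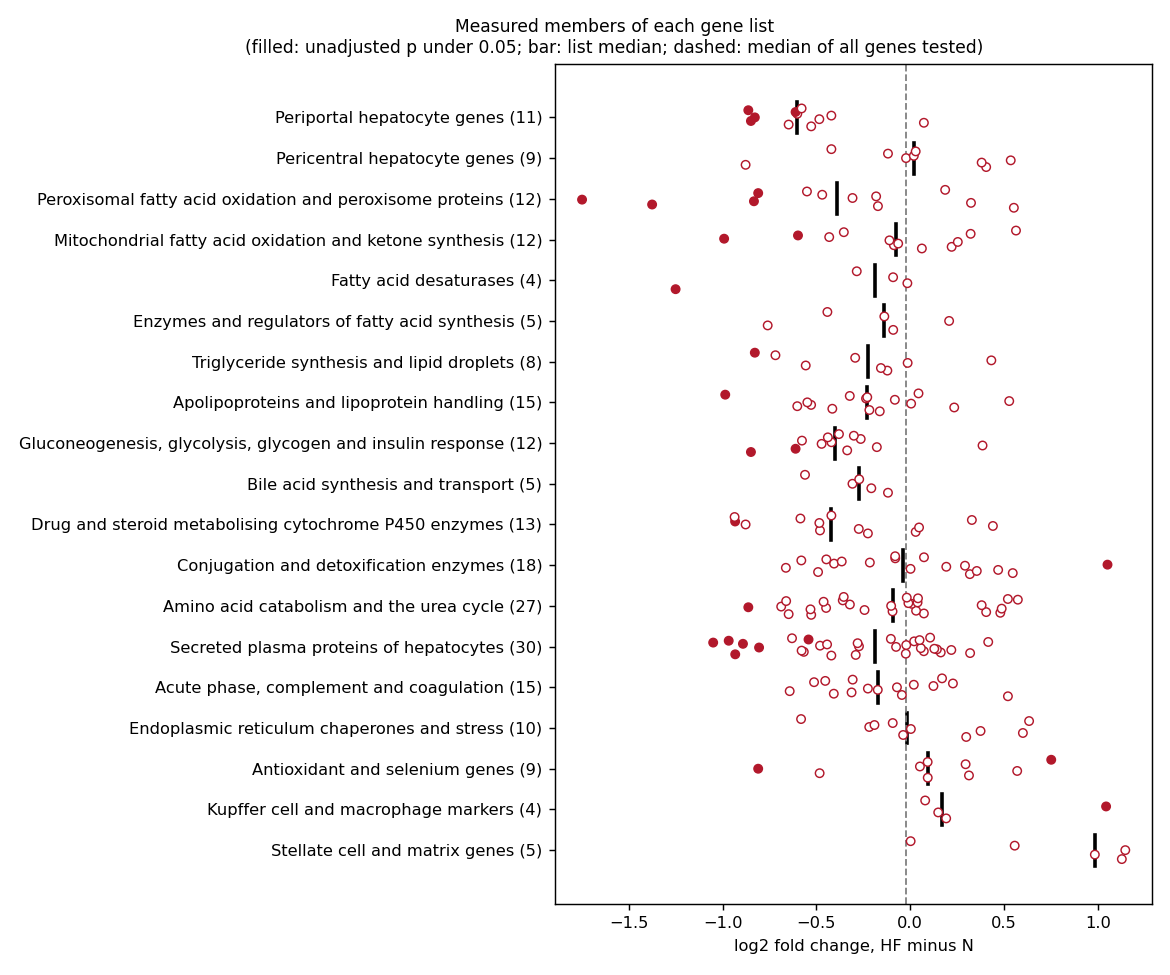
Log2 fold change of HF minus N (x axis) of every measured member of 19 gene lists, with the number of members in parentheses; filled points have an unadjusted p under 0.05, black bars are list medians and the dashed line is the median of all genes tested, -0.02. Periportal genes lie to the left with a median of -0.60 and pericentral genes around 0 with a median of 0.02.

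Genes of periportal hepatocytes had negative values in 10 of 11, with a median of -0.60 and 4 lower at an unadjusted p under 0.05 (background 6.12% of genes tested), none past the adjusted threshold. The 4 were Agxt, Pck1, Hsd17b13 and Fbp1. Of 9 pericentral genes 4 were negative, with a median of 0.02. The difference between the lists was not tested. Agxt, which detoxifies glyoxylate, had 789.6, 582, 639 and 1094 CPM in HF, against 803, 1774, 1694 and 1346 CPM in N. N mouse 4 lay among the HF mice and the other 3 N mice lay above all of them, and the log2 fold change was -0.86 (SE 0.27, adjusted p = 0.354). Cps1, the entry enzyme of the urea cycle, had 9138, 7641, 3120.0 and 7595 CPM in HF, against 5623, 14246, 11871 and 7857 CPM in N, or -0.53 on the log2 scale (SE 0.33). HF mouse 28 was the lowest HF mouse and N mouse 4 the lowest N mouse. The median of the periportal list was -0.79 without N mouse 4, -0.57 without N mouse 8 and -0.81 without both. The summed level of its 19 members with tags was 11473 to 23592 CPM in HF and 18133 to 33117 CPM in N, with the lowest value in HF mouse 28.

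Genes of glucose metabolism pointed the same way in value. Of 12 measured, 11 were negative (51.5% of all genes tested), with a median of -0.40, and 2 were lower at an unadjusted p under 0.05 (background 6.12%). In HFW minus NW 7 of the 12 were negative, with a median of -0.22. Pck1, phosphoenolpyruvate carboxykinase of gluconeogenesis, had 253, 207, 205 and 364 CPM in HF, against 268, 334, 476 and 797 CPM in N. HF mouse 29 overlapped N mice 4 and 5, and the log2 fold change was -0.85 (SE 0.33, adjusted p = 0.434), or -0.45 without N mouse 8. Fbp1, the gluconeogenic phosphatase, had 1411, 2084, 1368 and 1619 CPM in HF, against 1368, 3423, 2872 and 2226 CPM in N. N mouse 4 was at the lowest HF level, and the log2 fold change was -0.61 (SE 0.28). Gpi1, shared by glycolysis and gluconeogenesis, had -0.58 (SE 0.31), with N mouse 8 far above the other N mice and -0.26 without it. Without N mouse 8 the median was -0.24 with 10 of 12 negative. Pck1 and Fbp1 also belong to the periportal list, so the 2 counts are not independent. The periportal genes Hsd17b13 and Agxt are likewise counted again, among the triglyceride and the amino acid genes.

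Some genes were too low for the filter of the test. Among them 10 had at least 3 tags in each HF mouse and at most 3 in all N mice together. They include Aplp2, Bphl, Chst13, Fam117a, Ikbke, Il1r1, Mtap7, Odz3 and Slc39a9. No gene met that rule in the other direction, and the HF libraries held more tags, whose part in this was not tested. G6pc, the glucose-6-phosphatase that releases glucose, is listed at 0 tags in all 8 libraries, as are Mup17, Hbb-b1 and Lyz2, which are abundant in hepatocytes, red cells and macrophages. Whether the tags of these genes could be matched was not tested, so their 0 gives no limit on their level. Cidec and Pparg, a lipid droplet protein and a nuclear receptor of fat storage, had 6 tags each in HF, against 1 tag each in N. Cidec averaged 10.5 ± 12.6 CPM in HF and 2.38 ± 4.77 CPM in N, and Pparg 11.5 ± 4.97 CPM in HF and 3.72 ± 7.44 CPM in N (SD, n = 4 each). Cyp7a1, the rate-limiting enzyme of bile acid synthesis, had 42.1, 87.6, 65.5 and 84.8 CPM in HF mice 23, 25, 28 and 29, against 74.4, 47.7, 79.4 and 49.8 CPM in N mice 4, 5, 7 and 8. The groups overlapped, and the ratio of the means was 1.11, HF over N, smaller than the spread between mice.

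Of 15 apolipoprotein and lipoprotein genes 11 were negative, with a median of -0.23, and 1 was lower at an unadjusted p under 0.05 (background 6.12%). The median was -0.15 without N mouse 8 and -0.07 without N mice 4 and 8. The lower gene was Abca1, which loads cellular cholesterol onto apolipoprotein A-I. It had 337, 257, 508 and 721 CPM in HF, against 565, 534, 900.0 and 1644 CPM in N. N mouse 8 was the highest and HF mouse 29 overlapped the N range, and the log2 fold change was -0.99 (SE 0.34, adjusted p = 0.354), or -0.51 without N mouse 8. Apob, the structural protein of very-low-density lipoprotein, had -0.42 (SE 0.24), or -0.24 without N mouse 8, and Mttp, which loads it with lipid, -0.55 (SE 0.35). Lcat, which esterifies cholesterol in plasma, had 0.53 (SE 0.32). N mouse 4 was at 7482 CPM for Lcat, above all HF mice, and without it the log2 fold change was 1.08 (adjusted p = 0.0298, edgeR). Apoa2 was the most abundant named transcript of this group, with 4.65% ± 0.371 of the tags in HF and 5.01% ± 0.825 in N (SD, n = 4 each).

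Secreted plasma proteins of hepatocytes were divided, with 19 of 30 negative (51.5% of all genes tested), a median of -0.19 and 6 lower at an unadjusted p under 0.05 (background 6.12%). The median was -0.12 without N mouse 8. Gc, the vitamin D-binding protein, had 3000.4, 2528, 5176 and 6358 CPM in HF, against 3451, 7647, 8033 and 13455 CPM in N. N mouse 4 was within the HF range and the other 3 N mice above it, and the log2 fold change was -0.93 (SE 0.31, adjusted p = 0.354). It was -0.54 without N mouse 8 and no longer under an unadjusted p of 0.05 (unadjusted p = 0.0763). Cp, the copper-carrying ferroxidase ceruloplasmin, had -0.97 (SE 0.34) and Serpinf2, the inhibitor of plasmin, -0.81 (SE 0.32), or -0.55 and -0.53 without N mouse 8. Mup21, a major urinary protein, had -1.05 (SE 0.43), with 621, 363, 131 and 509 CPM in HF, against 565, 629, 569 and 1611 CPM in N. N mouse 8 was far above the other N mice, without it the value was -0.51, and its tag occurs in 1 other gene. Alb, albumin, averaged 4233 ± 1136 CPM in HF and 5663 ± 1132 CPM in N (SD, n = 4 each), with -0.42 on the log2 scale (SE 0.26), or -0.27 without N mouse 8. Igfals, the plasma carrier of insulin-like growth factors, had 0.42 (SE 0.30), with N mouse 4 above every HF mouse. Trfr2, the transferrin receptor by which hepatocytes sense iron, had 463, 338, 450.4 and 500.1 CPM in HF, against 476, 696, 873 and 1096 CPM in N. N mouse 4 was within the HF range, and the log2 fold change was -0.84 (SE 0.27, adjusted p = 0.354). Of 15 genes of the acute phase, complement and coagulation 10 were negative, with a median of -0.17 (-0.06 without N mouse 8) and 0 at an unadjusted p under 0.05.

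Cytochrome P450 genes had negative values in 9 of 13, with a median of -0.42, and 1 was lower at an unadjusted p under 0.05 (background 6.12%). Cyp3a59, of a family that oxidises steroids and drugs, had -0.93 (SE 0.39, adjusted p = 0.455). Cyp2e1, the ethanol-oxidising enzyme of pericentral hepatocytes, had 4074, 2178, 1228 and 2059.8 CPM in HF, against 1443, 2918, 3613 and 9568 CPM in N. N mouse 8 was far above all others, and the log2 fold change was -0.88 (SE 0.58), or -0.12 without that mouse. The tags of Cyp2e1, Cyp4f15 and Cyp2d26 occur in 1, 5 and 6 other genes. Without N mouse 8 the median of the list was -0.15. Conjugation and detoxification enzymes were evenly split, with 9 of 18 negative and a median of -0.04, and Ephx1 was the 1 member at an unadjusted p under 0.05. Without N mouse 8, 6 of the 18 were negative, with a median of 0.08. All 5 genes of bile acid synthesis and transport were negative, with a median of -0.27 and 0 at an unadjusted p under 0.05. Slc10a1, the bile acid uptake carrier, had -0.27, Slc27a2, an acyl-CoA synthetase of very-long-chain fatty acids, -0.31 and Abcc2, an export pump of conjugates, -0.56.

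Amino acid and urea cycle genes had negative values in 16 of 27, with a median of -0.09, and only Agxt had an unadjusted p under 0.05. Among antioxidant and selenium genes 7 of 9 were positive, with a median of 0.09, 1 member higher and 1 lower at an unadjusted p under 0.05. The lower one is Cat, given above. Sephs2, which makes the selenium donor for selenoproteins, had 2379, 2973, 925 and 1458 CPM in HF, against 1726, 1011, 1098 and 764 CPM in N, and a log2 fold change of 0.75 (SE 0.35, unadjusted p = 0.0386). HF mice 23 and 25 were above the N range, and HF mice 28 and 29 were inside it. Gpx4, the peroxidase of membrane lipid peroxides, took 5.12% ± 0.891 of the tags in HF and 4.002% ± 0.640 in N (SD, n = 4 each), with 0.31 on the log2 scale (SE 0.27), and its tag occurs in 1 other gene. Of 10 genes of the endoplasmic reticulum 5 were negative, with a median of -0.02. Kdelr1, the receptor that retrieves resident proteins of that compartment, had 3558, 2704, 1662 and 1856 CPM in HF, against 3243, 1192, 1125 and 747 CPM in N. N mouse 4 was at the level of the highest HF mice, the other 3 N mice were below every HF mouse, and the log2 fold change was 0.63 (SE 0.33), or 1.25 without N mouse 4 (adjusted p = 0.0202, edgeR). Lars2, the mitochondrial leucyl-tRNA synthetase, took 4.98% ± 1.79 of the tags in HF and 6.11% ± 2.54 in N, and N mouse 8 had the most. Its mean in HF was 47931 CPM, beside 4233 CPM for Alb. Whether all tags counted for Lars2 come from that gene was not tested.

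Markers of other liver cells were low, and the collagen genes among them were highest in 1 mouse. The 5 stellate cell and matrix genes tested had values of up to 1.15, with a median of 0.98 and 0 at an unadjusted p under 0.05. Col3a1, a fibrillar collagen, had 211, 657, 2432 and 389.9 CPM in HF, against 639.6, 400.5, 410.3 and 216 CPM in N, and a log2 fold change of 1.15 (SE 0.69). HF mouse 28 was the high one, HF mouse 25 was just above the N range, HF mouse 29 within it and HF mouse 23 just below it. Col1a1 had 1, 17, 51 and 6 tags in HF mice 23, 25, 28 and 29, against 2, 9, 5 and 5 tags in N mice 4, 5, 7 and 8. Its log2 fold change of 1.13 (SE 0.95) was -0.09 without HF mouse 28. The matrix protein genes Reln and Ecm1 had other patterns. Reln had 147, 100.1, 180 and 127 CPM in HF mice 23, 25, 28 and 29, against 89.2, 105, 119 and 49.8 CPM in N mice 4, 5, 7 and 8, with 3 HF mice above every N mouse. Ecm1 had 737, 688, 573 and 661 CPM in HF, against 461, 753, 701 and 731 CPM in N, with HF mouse 28 the lowest of the HF mice. The summed level of the 22 genes of this list was 4815 CPM in HF mouse 28, 1390 to 2153 CPM in the other HF mice and 1395 to 1659 CPM in N. All 4 Kupffer cell genes tested were positive, with a median of 0.17, and Mpeg1, a pore-forming protein of macrophages, had 1.04 (SE 0.49, unadjusted p = 0.0395). Only 2 of the 4 were positive in HFW minus NW, with a median of -0.15 and Mpeg1 at -0.33 (SE 0.62). Members below the filter were mixed. Csf1r had 33.9 to 100.1 CPM in HF and 74.4 to 265.8 CPM in N, and Vsig4 33.9 to 162.7 CPM in HF and 33.2 to 114.4 CPM in N. The summed level of that list was 822 to 1508 CPM in HF and 1078 to 1257 CPM in N. The 10 adipocyte markers had a summed level of 21.1 to 50.1 CPM in HF and 0 to 14.9 CPM in N, from Cidec, Lpl and Pparg alone, with the other 7 at 0. Bile duct markers summed to 314 to 482 CPM in HF and 524 to 681 CPM in N. Onecut2 gave 254 to 451 CPM of it in HF and 431 to 681 CPM in N, and Pkhd1 31.3 to 50.9 CPM in HF and 0 to 59.5 CPM in N, while Epcam and Sox9 had at most 3 tags in a library. The part of these cells in any difference above was not tested.

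The same diet difference was measured in the 8 mice given the extract, which share no library with HF and N, although all 16 libraries were normalized and fitted together. No gene passed in HFW against NW by edgeR, DESeq2 or limma-voom, with 126 genes (12.0%) at an unadjusted p under 0.05 by edgeR. A fit of those 8 libraries alone called 3, as did leaving out NW mouse 20. The HFW and NW libraries did not overlap for 92 genes (8.8%), and 46.5% of genes had a negative value. Across the 1046 genes the log2 fold changes of the 2 contrasts had a Pearson r of 0.499, given as a description over genes that are not independent, and 693 (66.2%) had the same sign. Of the 103 genes at an unadjusted p under 0.05 in the first contrast, 87 (84.5%) had the same sign in HFW against NW. Of the 32 genes whose HF and N libraries did not overlap, 21 (65.6%) did, about the share of all genes. Of the 24 higher and lower genes of smallest p, 23 had the same sign, and 8 of those also had an unadjusted p under 0.05. The median of the 12 higher genes was 0.92 in HF minus N and 0.61 in HFW minus NW, and that of the 12 lower genes -1.16 and -0.54. The 24 were picked for their values in HF minus N, so a smaller value elsewhere is part of how they were chosen.

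The groups stood apart in both pairs for 2 genes, Ephx1 (higher) and Aspg (lower, an asparaginase, named after its values were seen). These are 6.25% of the 32 genes apart in HF against N and 2.17% of the 92 apart in HFW against NW, beside 8.8% of all genes apart in HFW against NW. Ephx1 had 186, 192, 130.4 and 178 CPM in HFW mice 34, 36, 38 and 40, against 34.1, 59.5, 0 and 69.5 CPM in NW mice 11, 12, 15 and 20. NW mouse 15 had no tag, and the log2 fold change was 1.94 (SE 0.48, adjusted p = 0.175, edgeR). Glrx5 had 1.10, Chmp4b 0.99 and Aldh5a1 1.09 there, without overlap. Of the 12 lower genes, Eef1b2, Agxt, Trfr2, Gc and Acaa2 were also without overlap there, with -0.48, -0.55, -0.49, -0.44 and -0.73. Scd1 had 9328, 4316, 5869 and 3701 CPM in HFW, against 8531, 5650.3, 12433 and 10377 CPM in NW, with overlap and a log2 fold change of -0.67 (unadjusted p = 0.0287). Pcsk6 was low in both groups with the extract, with 6, 4, 8 and 8 tags in HFW, against 4, 5, 4 and 2 tags in NW. Its log2 fold change there was 0.71 (SE 0.62, adjusted p = 0.628), and the difference of the 2 diet contrasts was 1.53 (SE 0.80, unadjusted p = 0.0658), which did not pass.

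**Figure D5:**
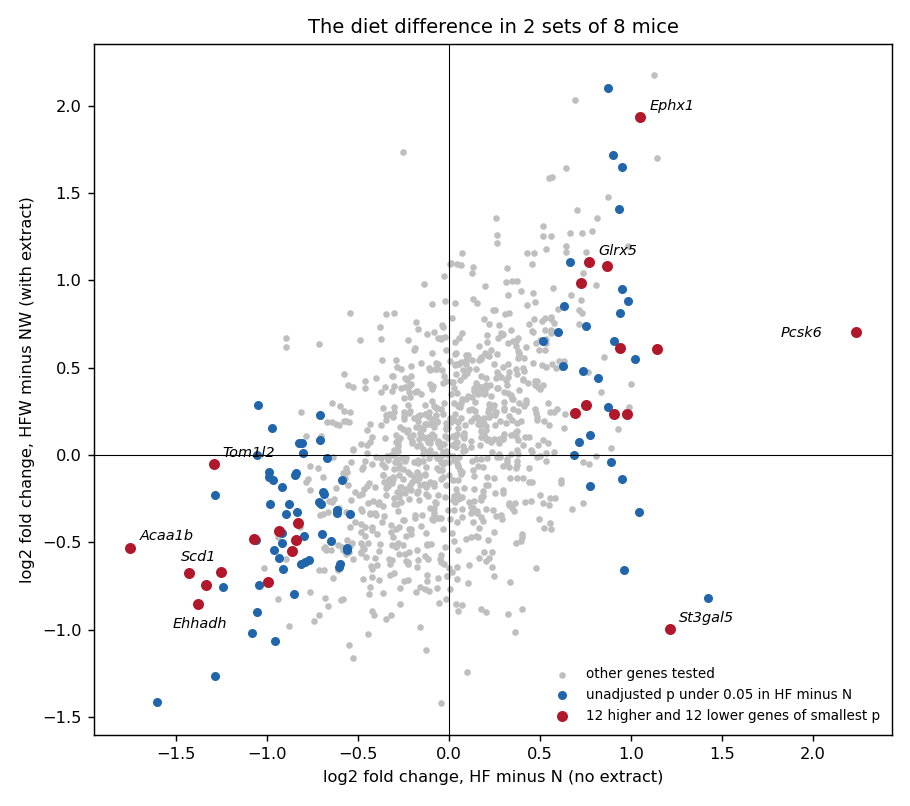
Log2 fold change of HF minus N (x axis) against that of HFW minus NW (y axis) for the 1046 genes tested; blue points have an unadjusted p under 0.05 in HF minus N and red points are the 12 higher and 12 lower genes of smallest p. Points spread along the diagonal with a Pearson r of 0.499, Ephx1 is at 1.05 and 1.94, and St3gal5 at 1.22 and -0.997 is the red point in the lower right.

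St3gal5 was the exception among the 24. In the mice with the extract it had 104, 87.4, 37.3 and 56.4 CPM in HFW, against 102, 153, 225 and 104 CPM in NW. Its log2 fold change there was -0.997 (SE 0.43, unadjusted p = 0.0271). HFW mouse 34 was at the level of the lowest NW mice, and the other HFW mice were below all NW mice. The difference of the 2 diet contrasts was 2.21 (SE 0.61), the smallest p of all genes for that term (unadjusted p = 0.00102), and it did not pass (adjusted p = 0.998, edgeR). Over all genes no difference of the contrasts passed by edgeR, DESeq2 or limma-voom, and 26 (2.49%) had by edgeR an unadjusted p under 0.05. By list, periportal genes had 10 of 11 negative in HFW minus NW, with a median of -0.44. Pericentral genes had 6 of 9 negative there, with a median of -0.45 beside 0.02 in HF minus N, so the 2 lists had similar medians in the mice with the extract. Cytochrome P450 genes had 13 of 13 negative in HFW minus NW, with a median of -0.47. The stellate and matrix genes had a median of 1.2 there, with 3 of 5 positive. Their list summed to 4850 CPM in HFW mouse 34 and 3428 CPM in HFW mouse 38, against 1485 to 2095 CPM in the other HFW mice. The NW mice had 1194 to 1929 CPM. Fatty acid synthesis genes had a median of -0.14 in HF minus N and 0.38 in HFW minus NW, and peroxisomal genes -0.39 in HF minus N and -0.10 in HFW minus NW.

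Without N mouse 4, 31 of the 1205 genes then tested passed the threshold in place of 1 of 1046, 17 higher and 14 lower in HF by edgeR. Within the 1046 genes tested with all mice, 16 of those past it were higher and 14 lower. Of the genes named above, 18 were among the 31. Besides Pcsk6, Scd1, Mtmr4, Hsd17b13, Fitm1, Lcat and Kdelr1, whose values without that mouse are given above, the log2 fold changes were 1.36 for Fam178a, 1.31 for 1110020G09Rik and 1.15 for Glrx5. They were -1.39 for Fbxo3, -1.31 for Eef1b2, -1.19 for Cp, -1.18 for Gc, -1.17 for Acaa2, -1.07 for Acaa1a, -1.05 for Agxt and -1.01 for Trfr2, with adjusted p of these genes from 0.0149 to 0.0494 (edgeR). For 15 of the 31, N mouse 4 lay within the range of the 4 HF mice, for 2 it lay within the range of the other 3 N mice, and for the rest within neither. The genes were chosen by leaving that mouse out, so its position on them is a description. The next 3 genes were chosen after their values were seen. Car2, a carbonic anhydrase that was not among the 1046 genes tested with all mice, was at 84.2 to 180 CPM in HF, 208 CPM in N mouse 4 and 0 to 19.1 CPM in the other N mice. Ltbr, the lymphotoxin beta receptor, was at 678 to 1537 CPM in HF, 1339 CPM in N mouse 4 and 133 to 496 CPM in the other N mice. Bsg, basigin, a partner of lactate carriers, was at 2102 to 3382 CPM in HF, 4388 CPM in N mouse 4 and 1032 to 1383 CPM in the other N mice. Without N mouse 8, by contrast, Gc, Abca1, Cp, Pck1, Serpinf2, Mup21 and Etfa were no longer under an unadjusted p of 0.05 (edgeR, 0.0763 to 0.192). Without N mice 4 and 8 together 1 gene passed, with 2 N mice left. What sets N mouse 4 apart was not tested.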

How the data were processed

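Total liver RNA was turned into SuperSAGE libraries with NlaIII and EcoP15I and amplified by PCR, per the labels' protocols. The authors deposited raw tag counts per RefSeq transcript and mouse, per the file headers. The matching of tags to transcripts is not given in the sources used here, and no molecular identifiers are named, so counts may include PCR copies. Of 26782 transcript entries, 417 without a gene symbol (0.0729% of tags) were left out, 40 of 41 symbols stored as dates were restored from the RefSeq identifier, and counts were summed to 20826 symbols, 10171 of them with tags. Pairs of libraries within HF or N differed beyond counting noise (chi-square over its degrees of freedom 4.08 to 15.0), so none was a duplicate.

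All 16 libraries were fitted together in R 4.3.3 with edgeR 4.0.16 (TMM normalization, default filter with a minimum count of 10, robust quasi-likelihood F test, Benjamini-Hochberg adjustment over 1046 genes, threshold 0.05). Contrasts were HF minus N, HFW minus NW and their difference. Approximate standard errors came from the log2 fold change and F. The p-values test a difference in means against the spread between mice, which was estimated over all feeding groups and with information shared across genes. CPM refers to the normalized library.

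The members and the 40 gene lists were chosen with earlier results of these data known. Named genes are those past the threshold, the 12 higher and 12 lower genes of smallest p, up to 4 members of smallest p in each list with 3 tested members, fixed genes of lipid and glucose metabolism, genes above 1% of the tags, and low genes with at least 3 tags in each library of 1 group and at most 3 in the other group. The text names part of the genes that meet this rule. The functions were tested on simulated counts. The alternatives comprised size factors and the Wald test of DESeq2 1.42.0, limma-voom (limma 3.58.1), no filter, at least 10 tags in 4 libraries, a fit of only the groups compared, a fit without robust estimation, libraries thinned to the smallest total, leaving out the 10 most abundant genes, each mouse, or N mice 4 and 8. N mice 4 and 8 were picked as a pair for their place in these data. List medians without these mice were added after seeing the data.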

Additional observations from a re-analysis of the deposited data

Results flagged for a closer look

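Of 200 groups of 4 libraries examined (100 genes in HF and in N), 10 held 1 mouse far from the other 3, by a gap above Dixon's critical value, where chance gives about 1 in 20 groups. N mouse 4 was the high mouse in 5 of them. Pcsk6 was at 223 CPM in N mouse 4 and 39.7 to 66.7 CPM in the other N mice, and Chmp4b at 937 CPM and 591 to 648 CPM. Lcat was at 7482 CPM in N mouse 4 and 2276 to 3097 CPM in the others, and Igfals at 3332 CPM and 1096 to 1392 CPM. Fam134a, a reticulon-like membrane protein, was at 20097 CPM in N mouse 4 and 7345 to 7609 CPM in the others.

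N mouse 8 was the high mouse in 3 groups. Mup21 was at 1611 CPM in it and 565 to 629 CPM in the other N mice, Gpi1 at 1395 CPM and 699 to 794 CPM, and Cyp4f15 at 282 CPM and 59.5 to 76.3 CPM. Within HF, Acaa1b was at 137 CPM in mouse 23 and 25.4 to 32.8 CPM in the others, and Dgat2 at 14953 CPM in mouse 29 and 8433 to 9099 CPM in the others. The cause was not tested.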

How the results depend on the processing

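No paired analysis was possible because every mouse has a number of its own. The count of genes past the threshold in HF against N was 1, with 2 by the DESeq2 Wald test, 0 by limma-voom (109 at an unadjusted p under 0.05) and 0 with the 8 libraries alone (80 at an unadjusted p under 0.05). It ran from 0 to 31 when a mouse was left out, 31 without N mouse 4 (of 1205 genes then tested) and 0 without HF mouse 23, HF mouse 25, N mouse 5, N mouse 7, N mouse 8 or NW mouse 11, and 2 without HFW mouse 34. In HFW against NW it was 0, with 3 for those libraries alone and 0 to 3 with a mouse left out (3 without NW mouse 20), and for the difference of the contrasts 0 in each such refit. Among 100 genes that meet the naming rule, 955 of 979 values under other settings and 1525 of 1596 with a mouse left out kept their direction and side of the threshold. Only Pcsk6 of these passed with all mice, so for the others an unchanged side says little. The mice left out include those of HFW and NW. Pcsk6 lost its call in 6 refits with a mouse left out and under 2 other settings. The direction turned in 47 values with a mouse left out and in 21 under other settings. With no filter, which moved the median of all genes to 0.18, Apoa2 was 0.06, Srebf1 0.04, Acly 0.09, Cyp4a14 0.18, Fads1 0.16 and Plin2 0.18. Without N mice 4 and 8, Apoa2 was 0.07, Fasn -0.08, Cpt1a -0.06 and Cyp4a14 0.31. By limma-voom Acly was 0.02 and Fads1 0.16, and thinned Acly was 0.06, Cpt1a -0.02 and Fads1 0.07. Fads1 was 0.02 with DESeq2 size factors, 0.02 by its Wald test and 0.01 without the 10 most abundant genes, and Plin2 0.02, 0.02 and 0.00. With a mouse left out the ranges were -0.61 to 0.06 for Lars2, -0.09 to 1.49 for Col1a1, -0.34 to 0.07 for Slc27a5, -0.24 to 0.04 for Apoa2, -0.19 to 0.80 for Fasn, -0.30 to 0.26 for Srebf1, -0.27 to 0.28 for Acly, -0.08 to 0.41 for Cpt1a, -0.30 to 0.29 for Cyp4a14, -0.20 to 0.46 for Fads1 and -0.07 to 0.07 for Plin2. The cause was not tested. A gene at 10 tags or fewer per library varies by a large share of its count from counting alone, and N libraries, at 64724 to 100426 tags, limit this more than HF libraries, at 91468 to 149349 tags.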
